A study of Mus musculus with 6 samples.

Results

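Vascular and mesenchymal cells are possible companions of astrocytes in a culture started from whole cortex, and 10 genes that mark them were followed here in cultured mouse cortical astrocytes with and without BRAF K499E. The genes were chosen by name for the cell type they are known to mark: Pecam1, Cldn5 and Cdh5 for endothelial cells, Pdgfrb, Rgs5 and Des for pericytes and other mural cells, Acta2 and Tagln for contractile smooth muscle, and Lum and Dcn for fibroblasts. They are 10 of the 55357 genes in the deposited table, and each was found there once. The KE group was 3 cultures transfected with BRAF K499E, and the NT group was 3 cultures that were not transfected. All 6 came from the cortex of C57BL/6 embryos at embryonic day 18, and the labels give 48 hours as the time from transfection to harvest. For its immunostaining of transfected astrocytes, the paper names a plasmid with FLAG-tagged BRAF K499E under the CMV promoter, given together with a GFP plasmid. The CMV promoter is active in most cell types, so expression from such a plasmid need not be restricted to astrocytes. Because NT received no plasmid, the effects of transfection and of BRAF KE cannot be told apart in any comparison given here. Neither the labels nor the methods say whether the 3 cultures of a group came from separate preparations, and the p-values therefore measure only the spread between these cultures.

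Endothelial cells line blood vessels, and in the brain their tight junctions form the main part of the blood-brain barrier. Mural cells, that is pericytes and vascular smooth muscle cells, wrap around the endothelium. Smooth muscle cells and myofibroblasts build contractile filaments from α-smooth muscle actin, whereas fibroblasts of the meninges and of larger vessels deposit collagens and small leucine-rich proteoglycans. None of these markers is strictly confined to its cell type, and actin and transgelin transcripts are also known from many cells grown on plastic. In RNA from a whole culture, fewer cells of a type and less RNA per cell cannot be told apart.

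The values are gene counts that the authors divided by size factors (normalized counts), with totals of 30472429 to 30895529 per culture and an approximate depth of 24490468 to 34144743 reads. Braf, the transfected gene, was 36979 ± 3464 in KE and 894 ± 73.1 in NT (SD, n = 3 each), and the lowest KE value was 36.9 times the highest NT value. The 10 astrocyte markers examined summed to 107988 to 113021 in NT and 149078 to 151320 in KE. Of the 9 tested, 6 were upregulated, 1 was downregulated and 2 were not called, beside 25.3% of all tested genes upregulated and 26.0% downregulated. The downregulated marker was Gja1, with a log2 fold change of KE against NT (log2FC) of -0.46. Slc1a3 and Gfap were the highest of the astrocyte markers per length, at 9501 and 6012 normalized counts per kb of transcript in NT, and were upregulated by 0.25 and 0.87 on the log2 scale. The 12 microglia markers summed to 40789 to 47216 in NT and 4921 to 6834 in KE, with a log2FC of -3.12 for the complement gene C1qa. The 8 oligodendrocyte lineage markers, several of which mark precursor cells, summed to 36373 to 36637 in NT and 28813 to 33807 in KE, with log2FC of -0.20 for Olig1 and -0.55 for Olig2. The sums of the 10 neuron markers overlapped between the groups (1760 to 2295 over the 6 cultures). Tubb3 and Stmn2 were the highest by count, with log2FC of 0.43 and -0.58. Of the 8 neuron markers tested, 3 were upregulated, 1 was downregulated and 4 were not called, with a median log2FC of 0.46. For 6 of the 8 the ranges of KE and NT were separate, beside 59.9% of all tested genes. The sums of the 6 ependymal and choroid plexus markers overlapped too (1222 to 1823), and their highest by count, Foxj1 and Otx2, were not called. The 3 endothelial genes of the 10 vascular and mesenchymal markers summed to 30.6 to 40.2 in NT and 16.8 to 19.1 in KE, and the 2 contractile genes to 2958 to 4920 in NT and 1631 to 1764 in KE. The 3 mural genes summed to 716 to 723 in NT and 844 to 865 in KE. The sums of the 2 fibroblast genes overlapped, at 519 to 641 in NT and 567 to 712 in KE. These sums are of unequal numbers of genes and are not divided by length.

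**Figure D1:**
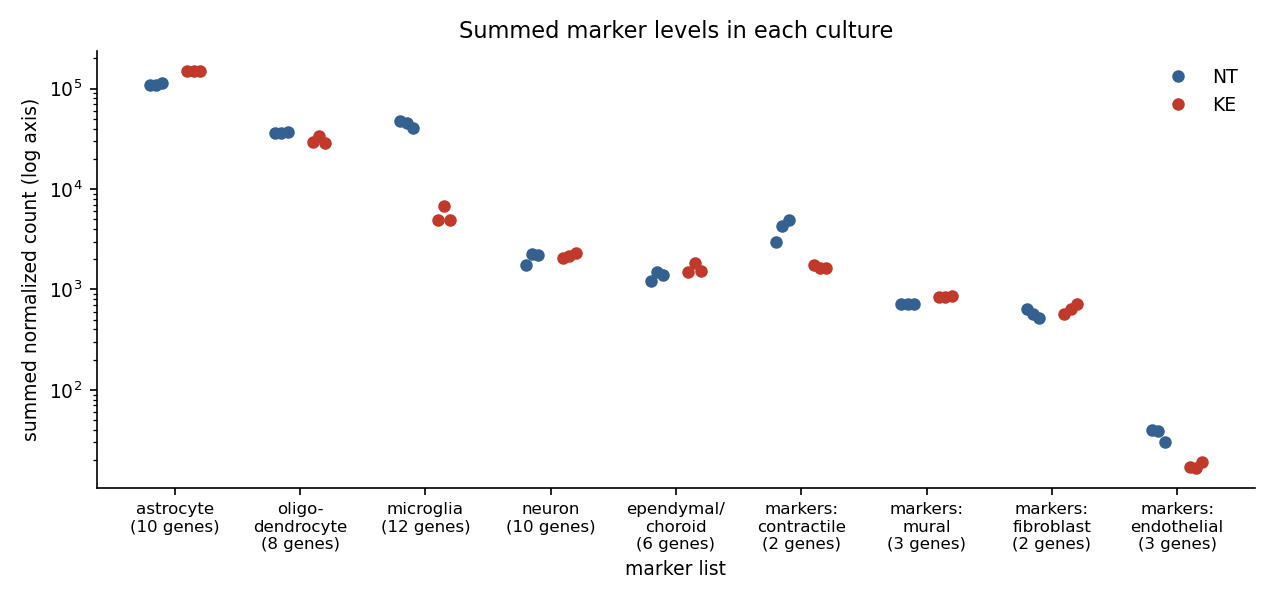
Summed normalized count (vertical log axis) of each marker list in every culture, with blue points for the 3 NT and red points for the 3 KE cultures. The contractile sum was lower in all 3 KE cultures (1631 to 1764) than in all 3 NT cultures (2958 to 4920). The endothelial sum, mostly Pecam1, was lower in all 3 KE (16.8 to 19.1) than in all 3 NT cultures (30.6 to 40.2). The mural sum was higher in all 3 KE (844 to 865) than in all 3 NT cultures (716 to 723). Within the mural sum, mean Rgs5 went from 267 in NT to 456 in KE, whereas mean Pdgfrb went from 453 to 390. The fibroblast sums overlapped (567 to 712 in KE, 519 to 641 in NT).

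Of the 10 genes, 7 had a mean of at least 10 normalized counts over the 6 cultures and were tested, and Cldn5, Cdh5 and Des fell under this limit. In KE, Acta2, Tagln, Dcn and Pecam1 were downregulated, Rgs5 and Lum were upregulated, and Pdgfrb did not pass the test. The test was limma on log2(normalized count + 1), a scale that understates the change of low genes, with Benjamini-Hochberg adjustment over all 15280 tested genes and a threshold of 0.05 on the adjusted p-value. The 6 calls among the 7 are to be read against a transcriptome in which 51.3% of tested genes were differentially expressed, 25.3% upregulated and 26.0% downregulated. For 5 of the 7 genes the ranges of KE and NT were separate, compared with 59.9% of all tested genes. The contractile pair fell together, the fibroblast pair moved in opposite directions, and of the mural pair that could be tested only Rgs5 was called.

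**Figure D2:**
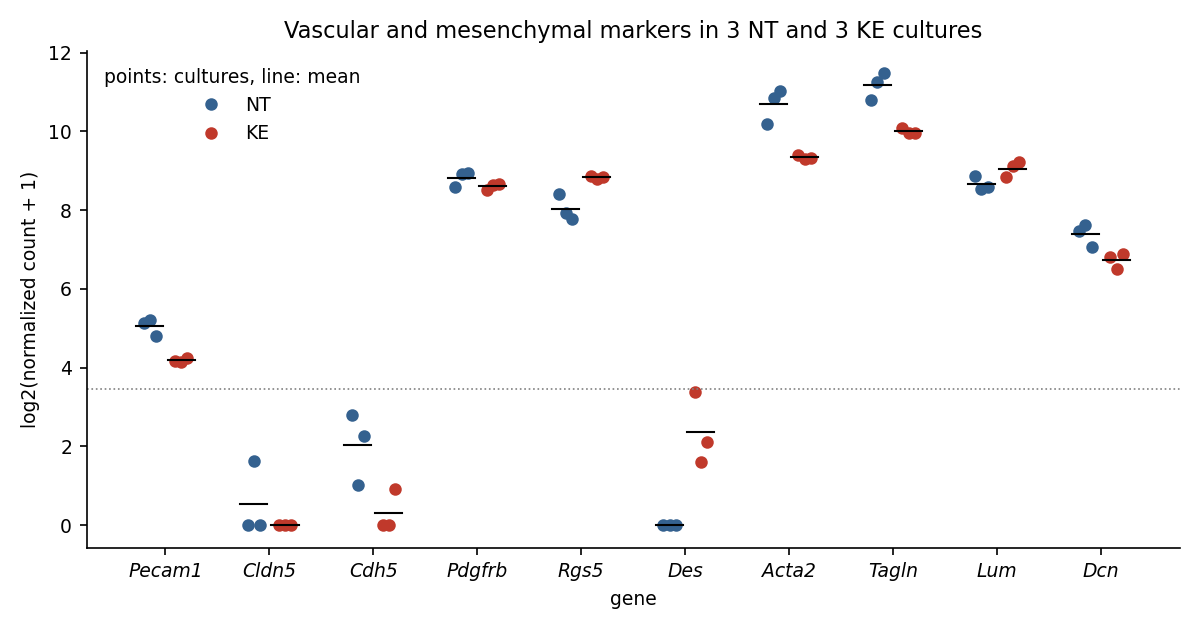
Log2(normalized count + 1) of each of the 10 genes in the 3 NT (blue) and 3 KE (red) cultures, where the short line is the group mean and the dotted line the mean of 10 normalized counts needed for a test. Acta2 and Tagln had all their KE points below all their NT points, and Cldn5, Cdh5 and Des lay under the dotted line.

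To compare the levels of the 10 markers with each other, normalized counts were divided by the length of the canonical transcript, in kb. In NT the order was Tagln (1425), Acta2 (608), Lum (166), Pdgfrb (83.8), Rgs5 (64.6), Dcn (27.7), Pecam1 (8.82), Cdh5 (0.894) and Cldn5 (0.488), and Des was listed at 0. Pdgfrb (70.8 to 91.6 per kb) and Rgs5 (53.3 to 81.9 per kb) overlapped between the NT cultures, as did Cdh5 with Cldn5 and Cldn5 with Des, while the other neighbours in this order did not. In KE the order was Tagln (622), Acta2 (233), Lum (217), Rgs5 (110), Pdgfrb (72.2), Dcn (17.4), Pecam1 (4.72), Des (1.58) and Cdh5 (0.0751), and Cldn5 was listed at 0. Of neighbours in this order, Acta2 overlapped with Lum and Cdh5 with Cldn5 between the KE cultures. Rgs5 stood above Pdgfrb in all 3 KE cultures and below it in NT replicates 2 and 3.

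Of the 3 endothelial markers, Cldn5 and Cdh5 were at or near the limit of detection, and Pecam1 was not. Cldn5 encodes the main claudin of the blood-brain barrier's tight junctions and lies on the plus strand of chromosome 16 of GRCm39, from 18595597 to 18597012. Cldn5 was listed at 0 in 5 of the 6 cultures and at 2.07 normalized counts in NT replicate 2, which is approximately 2.0 reads. Cdh5, which encodes VE-cadherin of the endothelial adherens junction, was 5.94, 1.04 and 3.81 in NT replicates 1 to 3, listed at 0 in KE replicates 1 and 2, and 0.905 in KE replicate 3. These values correspond to between 0 and approximately 6.0 reads per library, and neither gene was tested.

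Pecam1 (ENSMUSG00000020717), an adhesion molecule of endothelial cell contacts that is also carried by platelets and by many leukocytes, lies on the minus strand of chromosome 11 from 106543689 to 106641454. It was 34.3, 36.3 and 26.8 normalized counts in NT replicates 1 to 3 and 17.1, 16.8 and 18.2 in KE replicates 1 to 3. Every KE culture was below every NT culture, and the KE values were close together. Pecam1 was downregulated, with a log2FC of -0.86 and a standard error of 0.27 (adjusted p = 0.020 from limma), and its mean was 46.5% lower in KE. This call was lost without NT replicate 1 (log2FC -0.81, adjusted p = 0.063), without NT replicate 2 (-0.77, adjusted p = 0.072) and with no filter on low genes (adjusted p = 0.057). In every library Pecam1 had approximately 13 to 35 reads, and per kb of transcript it was above Cdh5 and Cldn5 in each culture. Beside it, all 12 microglia markers were downregulated, with a median log2FC of -3.34, compared with 26.0% of all tested genes downregulated. The part of microglia in the change of Pecam1 was not tested.

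Of 26 further endothelial genes, only 14 were expressed highly enough for a test. The transcription factor genes Sox17, Sox18 and Erg and the receptor gene Tie1 did not exceed 2.44 normalized counts in any culture, and Sox17 was at 0 in all 6. Others of the list were well above the limit, with Plvap at 352 to 458, Flt1 at 197 to 428 and Clec14a at 173 to 199. Plvap (log2FC -0.10) and Clec14a (-0.06) were not called, and Flt1 (-0.62, adjusted p = 0.0088 from limma) was downregulated. Among the 14 tested genes, 2 were upregulated, 5 were downregulated and 7 were not called, with a median log2FC of -0.34 compared with 0.0018 for all tested genes. Of all tested genes, 51.3% were called. Both upregulated genes, Abcb1a and Nos3, had NT means under 10 and reached the limit for a test only through KE. The highest by normalized count, not divided by length, were Mfsd2a, a lipid transporter (1329 to 2088 over the 6 cultures), Slco1a4, an organic anion transporter (641 to 1484), and Podxl, a sialomucin (364 to 463). Mfsd2a (log2FC -0.39, adjusted p = 0.0052 from limma) and Slco1a4 (-0.79, adjusted p = 0.00054) were downregulated, and Podxl (-0.12, adjusted p = 0.33) was not called. All 3 are also known from other cell types. The changes beyond 1.5 on the log2 scale were those of Abcb1a, a drug efflux pump, with a log2FC of 2.10, and of Cd34, which is shared with hematopoietic progenitors, with -2.81. Abcb1a rose from 7.91 to 10.1 in NT to 33.8 to 52.7 in KE, and Cd34 fell from 88.1 to 124 in NT to 8.52 to 36.8 in KE. The other upregulated gene, Nos3 (log2FC 0.95, adjusted p = 0.041 from limma), was no longer called with any KE culture, NT replicate 1 or NT replicate 3 left out (log2FC 0.73 to 1.04, adjusted p = 0.057 to 0.12), with no filter on low genes or with a replicate block. The list held 1 upregulated gene without KE replicate 1, 2 or 3 or NT replicate 1.

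Endothelial tight and adherens junctions also contain proteins shared with astrocytes and other cells, and 19 such genes were compared. Of the 17 tested, 3 were upregulated, 1 was downregulated and 13 were not called, beside 25.3% of all tested genes upregulated and 26.0% downregulated. The median log2FC of the 17 was 0.07. Ctnnb1, which encodes β-catenin (33369 to 41249), and the scaffold gene Tjp1 (8671 to 10133) overlapped between the groups, with log2FC of -0.09 and -0.05. Cdh2, the N-cadherin gene of astrocytes and neurons, was upregulated by 0.37 (adjusted p = 0.00045 from limma), and in NT it stood at 3151 normalized counts per kb of transcript where Cdh5 stood at 0.894. The largest rise was that of Ocln, from 13.1 to 17.9 in NT to 25.3 to 39.2 in KE (log2FC 0.96, adjusted p = 0.018 from limma). Jam3 was also upregulated, with a log2FC of 0.30. The single downregulated gene was F11r, with a log2FC of -0.85, and without NT replicate 3 the list held 2 downregulated genes.

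The mural markers differed from each other. Pdgfrb (ENSMUSG00000024620), the receptor through which PDGF-B recruits pericytes, lies on the plus strand of chromosome 18 from 61178212 to 61218133. It was 383, 481 and 495 normalized counts in NT replicates 1 to 3 and 365, 401 and 405 in KE replicates 1 to 3. NT replicate 1 lay within the KE range, so the groups overlapped. The log2FC was -0.21 with a 95% interval from -0.46 to 0.04 (adjusted p = 0.15 from limma), so a change of this size could not be separated from the spread between cultures. Without NT replicate 1, Pdgfrb was called downregulated, with a log2FC of -0.32 and an adjusted p of 0.027 from limma.

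Rgs5 (ENSMUSG00000026678), a regulator of G protein signaling that is abundant in brain pericytes, lies on the plus strand of chromosome 1 from 169483036 to 169524887. It was 338, 242 and 220 in NT replicates 1 to 3 and 469, 441 and 456 in KE replicates 1 to 3. All KE values exceeded all NT values, and NT replicate 1 was again the NT culture nearest to KE. The mean was 70.7% higher in KE, a log2FC of 0.79 with a standard error of 0.15 (adjusted p = 0.00091 from limma). The ratio of Rgs5 to Pdgfrb in normalized counts, not divided by length, was 1.17 ± 0.0996 in KE and 0.611 ± 0.238 in NT (SD, n = 3 each), without overlap between the groups. An exact two-sided permutation test of the log ratio gave p = 0.1, the smallest that 3 cultures against 3 allow, so this test could not pass the threshold and the ratio is given as a description.

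Des (ENSMUSG00000026208) encodes desmin, the intermediate filament of muscle and of mural cells, and lies on the plus strand of chromosome 1 from 75320511 to 75345223. In KE replicates 1 to 3 it was 9.52, 2.05 and 3.30, whereas each NT culture was listed at 0. These are approximately 11, 1.6 and 3.6 reads, and no fold is given against a group listed at 0. Des was thus present in each KE library at a level that its mean placed under the limit for a test.

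Of 16 further pericyte genes, 7 fell under the limit for a test, and most of these were nearly absent. Kcnj8 and Abcc9, which form a potassium channel, Vtn, Atp13a5 and Ndufa4l2 did not exceed 3.75 normalized counts in any culture, and Higd1b was at 0 in all 6. Of the 9 tested, 2 were upregulated, 4 were downregulated and 3 were not called, beside 25.3% of all tested genes upregulated and 26.0% downregulated. The median log2FC of the 9 was -0.10. The highest by normalized count were Notch3 (2035 to 2637), a receptor of smooth muscle and pericytes, Cspg4 (533 to 815), the NG2 proteoglycan gene shared with oligodendrocyte precursors, and Mcam (463 to 848), an adhesion molecule. Notch3 was not called (log2FC 0.05), whereas Cspg4 (-0.35, adjusted p = 0.024 from limma) and Mcam (-0.55, adjusted p = 0.0031) were downregulated. Without KE replicate 1, KE replicate 3 or NT replicate 2, Cspg4 was no longer called, with log2FC of -0.28, -0.29 and -0.28, nor was it without the variance trend (adjusted p = 0.070 from limma). Larger changes were found for Art3 (log2FC 2.63) and Ggt1 (2.04), which were upregulated, and for the aminopeptidase gene Anpep (-2.36), which was downregulated and is also known from myeloid cells. Beside Cspg4, 6 of the 7 tested oligodendrocyte lineage markers, Cspg4 included, were downregulated with a median log2FC of -0.50 over the 7, and beside Anpep stands the fall of the microglia markers given above, and the part of either cell type was not tested.

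The ligands and relatives of the PDGF receptor were measured in all cultures. Pdgfa (1690 to 1826 in KE and 1078 to 1156 in NT) was upregulated by a log2FC of 0.66, and Pdgfra (904 to 1049 in KE and 1637 to 1938 in NT), the receptor of fibroblasts and oligodendrocyte precursors, was downregulated by -0.87. Pdgfb, the ligand of Pdgfrb, was 152 to 184 in KE and 256 to 305 in NT, and it was downregulated with a log2FC of -0.66 (adjusted p = 0.0014 from limma). Pdgfc (0.13) and Pdgfd (-0.15) were not called. Of 9 relatives of Rgs5 in the same subfamily, 6 were tested, with a median log2FC of 0.14. Of these, 3 were upregulated, 2 were downregulated and 1 was not called, beside 25.3% of all tested genes upregulated and 26.0% downregulated. The highest of the relatives by normalized count, Rgs16, Rgs8 and Rgs3, were all upregulated, with log2FC of 0.86, 0.25 and 0.27. Rgs1 (-0.93) and Rgs2 (-0.61) were downregulated, and Rgs4 (0.03) was not called.

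The contractile markers showed the largest falls among the 7 tested genes. Acta2 (ENSMUSG00000035783) encodes α-smooth muscle actin and lies on the minus strand of chromosome 19 from 34217737 to 34232990. It was 1174, 1833 and 2074 normalized counts in NT replicates 1 to 3 and 679, 632 and 641 in KE replicates 1 to 3. The highest KE culture stood well below the lowest NT culture, and the KE values varied little. The mean was 61.6% lower in KE, a log2FC of -1.34 with a standard error of 0.17 (adjusted p = 5.4e-05 from limma).

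Tagln (ENSMUSG00000032085) encodes transgelin, an actin-binding protein of smooth muscle, and lies on the minus strand of chromosome 9 from 45840909 to 45847404. It was 1784, 2429 and 2846 in NT replicates 1 to 3 and 1085, 999 and 995 in KE replicates 1 to 3. The groups did not overlap, and the cultures stood in the same order as for Acta2 within NT. The mean was 56.4% lower in KE, a log2FC of -1.17 with a standard error of 0.14 (adjusted p = 3.4e-05 from limma). Acta2 and Tagln each overlap a protein-coding gene on the opposite strand, Stambpl1 and Pcsk7. Stambpl1 had a log2FC of 0.20 (adjusted p = 0.33) and Pcsk7 one of -0.27 (adjusted p = 0.025, both from limma). Tagln also overlaps the noncoding gene Gm48529 on that strand, with a log2FC of -0.35 (adjusted p = 0.23 from limma). The libraries were stranded, and the sources used here do not say whether reads were counted by strand.

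**Figure D3:**
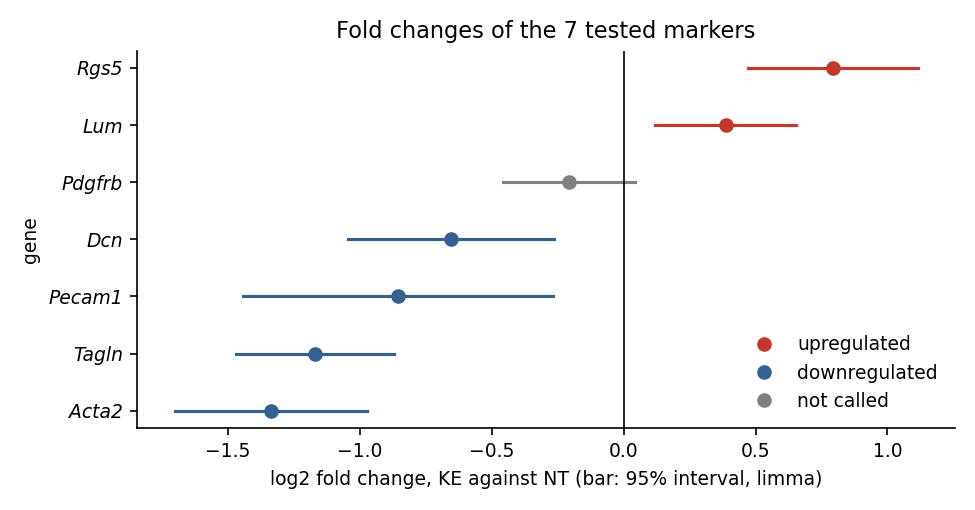
Log2 fold change of KE against NT for each of the 7 tested genes (horizontal axis), with the 95% interval from limma as a bar. Acta2 (-1.34) and Tagln (-1.17) lay farthest from 0, Rgs5 (0.79) and Lum (0.39) were above 0, and only the bar of Pdgfrb crossed 0.

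In every tested marker but Pecam1, the NT cultures differed more than in most genes of like level, and most of all in Acta2, Tagln and Rgs5. The coefficient of variation of Acta2 was 27.5% in NT and 3.84% in KE, and that of Tagln was 22.7% and 4.97%. Among the 5115 genes whose NT mean lay within 2-fold of that of Acta2, the median coefficient of variation in NT was 5.10%, and Acta2 exceeded 99.5% of them. Tagln likewise exceeded 99.1% of its 4453 peers in NT, but only 37.5% of its peers in KE. Rgs5 exceeded 93.3% of its peers in NT, Pdgfrb 83.1%, Dcn 80.4%, Lum 75.9% and Pecam1 32.2%. NT replicate 1 had the lowest Acta2 and Tagln and the highest Rgs5 of its group, which brought all 3 genes closer to KE. Without NT replicate 1 the log2FC was -1.58 for Acta2, -1.36 for Tagln and 0.98 for Rgs5, and without NT replicate 3 it was -1.17, -1.02 and 0.67, with adjusted p-values from limma between 6.6e-07 and 0.0026 in these fits.

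Across the 6 cultures, the log2 values of Acta2 and Tagln had a Pearson's r of 0.998. Among the 12072 tested genes with a mean of at least 100, the gene most like Acta2 was Tagln and the gene most like Tagln was Acta2. Rgs5 ran opposite to both, with r of -0.991 to Acta2 and -0.985 to Tagln. The closest of the other markers to Rgs5 was Lum (r = 0.86), and that to Pecam1 was Dcn (r = 0.95). For these genes many others lay closer, the nearest being Zfp35 for Rgs5 (r = 0.998), Tes for Pecam1 (r = 0.999), Dse for Dcn (r = 0.997), Fpgt for Lum (r = 0.987) and Nectin1 for Pdgfrb (r = 0.996). These r values rest on 6 points that share the difference between the groups and they only describe the cultures. The ratio of Acta2 to Tagln in normalized counts was 0.634 ± 0.0095 in KE and 0.714 ± 0.050 in NT (SD, n = 3 each), without overlap, although the highest KE value (0.644) was close to the lowest NT value (0.658). An exact two-sided permutation test gave p = 0.1, the smallest this design allows, so it could not pass the threshold.

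**Figure D4:**
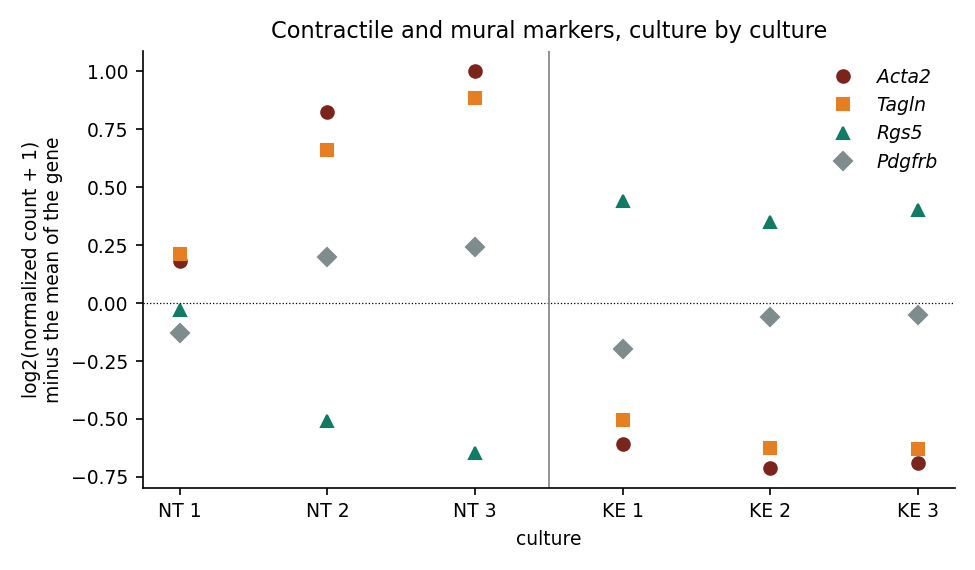
Log2(normalized count + 1) of Acta2, Tagln, Rgs5 and Pdgfrb in each culture, after subtraction of the gene's mean over the 6 cultures (vertical axis), with NT to the left and KE to the right of the grey line. In NT replicates 2 and 3 the contractile genes stood high and Rgs5 low, NT replicate 1 lay between these and KE, and the 3 KE cultures were alike.

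The genes of smooth muscle are known as targets of serum response factor, which binds the CArG box, a sequence of a pair of C, 6 A or T bases and a pair of G. The promoters of Acta2 and Rgs5, which moved in opposite directions, are shown for comparison, as the 250 bases before the start of the gene in RefSeq (GRCm38.p6). The window of Acta2 is chr19:34255374-34255623 on the minus strand and that of Rgs5 is chr1:169655251-169655500 on the plus strand. Capitals mark CArG boxes with 1 core base other than A or T and the motif CATTCC, which TEAD factors are known to bind.
Acta2: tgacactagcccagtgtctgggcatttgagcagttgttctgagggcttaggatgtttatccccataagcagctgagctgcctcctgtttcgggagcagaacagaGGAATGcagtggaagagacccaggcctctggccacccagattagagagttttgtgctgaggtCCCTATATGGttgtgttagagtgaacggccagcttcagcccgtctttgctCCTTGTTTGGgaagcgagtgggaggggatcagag
Rgs5: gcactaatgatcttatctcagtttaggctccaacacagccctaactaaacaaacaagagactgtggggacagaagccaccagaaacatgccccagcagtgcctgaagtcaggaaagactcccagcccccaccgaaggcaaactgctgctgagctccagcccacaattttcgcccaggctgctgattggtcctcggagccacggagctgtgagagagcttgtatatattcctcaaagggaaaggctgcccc
Acta2 contains a pair of CArG boxes with 1 such core base, starting at -84 and -34 relative to the start of the gene, and the motif CATTCC on the opposite strand from -146. The Rgs5 window contains neither. Neither window contains a CArG box with a pure A or T core. Over the 32851 promoter windows of the same length, 7.24% hold a CArG box with 1 such core base, 1.47% hold a pure one and 12.6% hold CATTCC on either strand. Promoter entries were found for 4 of the 10 genes (Acta2, Rgs5, Des and Cldn5), and Pecam1, Cdh5, Pdgfrb, Tagln, Lum and Dcn had none.

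Other contractile genes did not follow Acta2 and Tagln as a whole. Of 20 such genes, 16 were tested, with a median log2FC of -0.17. Of these, 5 were upregulated, 8 were downregulated and 3 were not called, beside 25.3% of all tested genes upregulated and 26.0% downregulated. Cnn1, the calponin gene of smooth muscle, had the largest fall, from 182 to 339 in NT to 93.9 to 138 in KE (log2FC -1.19, adjusted p = 0.0010 from limma). The highest gene of the list by normalized count, the filamin gene Flna (30819 to 42752), was downregulated by -0.33, the tropomyosin gene Tpm1 (5457 to 7321) was upregulated by 0.27, and the caldesmon gene Cald1 (7523 to 9637) was not called (0.12). Srf, which encodes serum response factor, was downregulated by -0.35, and its cofactor gene Mrtfa (-0.14) was not called. The call of Mrtfb (-0.16, adjusted p = 0.044 from limma) was lost when any culture but KE replicate 3 was left out. Myh11, the myosin heavy chain gene that defines mature smooth muscle, did not exceed 16.7 normalized counts, and its mean over the 6 cultures lay just above the limit for a test, which its NT mean of 6.39 did not reach. It was called upregulated by 1.06 (adjusted p = 0.048 from limma), and this call was lost with a pseudocount of 0.5, no filter, another scaling or the replicate block (adjusted p = 0.050 to 0.085) and without NT replicate 1 (log2FC 0.94, adjusted p = 0.12) or NT replicate 2 (0.97, adjusted p = 0.11). Without KE replicate 1 or 3 or with a mean of at least 50, Myh11 was under the limit and had no test. Myocd, its master regulator, was at 0 in all 6 cultures, and Actg2, Acta1 and Actc1 did not exceed 5.29. The 8 downregulated genes became 4 without NT replicate 3, and 5 without KE replicate 1, KE replicate 3 or NT replicate 2 or with limma fitted without the variance trend.

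Over the 6 cultures, 8 of the 16 tested contractile genes had r of 0.86 to 0.97 with Acta2, among them Cnn1, Flna, Lmod1 and Smtn, and 5 ran the other way with r of -0.93 to -0.73. These 5 were Mylk, the myosin light chain kinase gene, Vcl, Tpm1, Synpo2 and Myh11, and Mylk went from 91.7 to 106 in NT to 135 to 176 in KE. NT replicate 1 was the lowest NT culture for 14 of the 16 genes, compared with 35.8% of all tested genes. The 14 include Myh11, Tpm1, Synpo2 and Vcl, which were upregulated and for which NT replicate 1 was therefore the NT culture farthest from KE, whereas for Acta2 it was the nearest.

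The fibroblast markers Lum and Dcn are neighbours in the genome and moved in opposite directions. Both encode small leucine-rich proteoglycans that bind collagen fibrils, and both lie on the plus strand of chromosome 10, Dcn from 97315275 to 97358155 and Lum from 97400990 to 97408577. Lum (ENSMUSG00000036446) was 463, 374 and 386 normalized counts in NT replicates 1 to 3 and 456, 553 and 594 in KE replicates 1 to 3. KE replicate 1 lay just below NT replicate 1, so the groups overlapped. Lum was upregulated, with a log2FC of 0.39 and a standard error of 0.12 (adjusted p = 0.020 from limma). The call was lost without KE replicate 2 (0.36, adjusted p = 0.061), KE replicate 3 (0.31, adjusted p = 0.086), NT replicate 2 (0.33, adjusted p = 0.067) or NT replicate 3 (0.35, adjusted p = 0.055), and without the variance trend (adjusted p = 0.056).

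Dcn (ENSMUSG00000019929), which encodes decorin, was 178, 196 and 133 in NT replicates 1 to 3 and 110, 90.2 and 118 in KE replicates 1 to 3. Every KE culture was below every NT culture, although NT replicate 3 and KE replicate 3 were close. The mean was 37.1% lower in KE, a log2FC of -0.65 with a standard error of 0.18 (adjusted p = 0.0099 from limma). The ratio of Lum to Dcn in normalized counts was 5.10 ± 0.998 in KE and 2.47 ± 0.512 in NT (SD, n = 3 each). The ratios did not overlap between the groups, with p = 0.1 from an exact two-sided permutation test, the smallest possible here. Between the genes lie 42.8 kb in which Gencode vM39 annotates no gene.

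Of 15 relatives of Lum and Dcn in the proteoglycan family, 9 were tested, of which 2 were upregulated, 3 were downregulated and 4 were not called, with a median log2FC of 0.09, beside 25.3% of all tested genes upregulated and 26.0% downregulated. Fmod (-1.36, adjusted p = 0.00018 from limma), Ogn (-0.87, adjusted p = 0.0010) and Bgn (-0.65, adjusted p = 0.0063) were downregulated. Fmod, which encodes fibromodulin, was 192, 306 and 344 in NT replicates 1 to 3 and 97.5 to 111 in KE, and it had r of 0.998 with Acta2 over the 6 cultures. The relatives with the most normalized counts, Tsku (1034 to 1212) and Prelp (539 to 839), were not called, with log2FC of 0.09 and 0.26. Nyx (1.81) and Chadl (0.57) were upregulated. Kera and Epyc, which belong to the same gene cluster as Lum and Dcn, did not exceed 1.90 normalized counts. With the replicate number as a block, 4 relatives were upregulated instead of 2.

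Of 25 further fibroblast genes, 20 were tested, of which 5 were upregulated, 7 were downregulated and 8 were not called, with a median log2FC of -0.01, beside 25.3% of all tested genes upregulated and 26.0% downregulated. The highest by normalized count were Islr (3280 to 6692), the transcription factor gene Prrx1 (4201 to 5186) and Loxl1 (1228 to 2382), which encodes a crosslinking enzyme of elastic fibres. Islr (0.67) and Loxl1 (0.70) were upregulated, both with an adjusted p of 0.00012 from limma, and Prrx1 (0.11) was not called. The largest falls were those of Fbln2 (-1.88, adjusted p = 2.2e-06 from limma), a matrix protein gene that went from 391 to 467 in NT to 91.2 to 134 in KE, and of Aldh1a2 (-1.55, adjusted p = 0.025), a retinoic acid synthesis enzyme of the meninges that did not exceed 30.0 normalized counts, with a KE mean of 4.91 that lies under the limit for a test, which it passed only through NT. Aldh1a2 was no longer called without KE replicate 1 or KE replicate 3, with log2FC of -1.40 in both. The fibrillar collagen genes differed, with Col1a2 (0.37) upregulated, Col3a1 (-0.59) downregulated and Col1a1 (-0.25) not called. The call of Col1a2 was lost without KE replicate 1 (0.35), KE replicate 3 (0.34) or NT replicate 1 (0.21), that of Col3a1 without KE replicate 2 (-0.52), KE replicate 3 (-0.53) or NT replicate 2 (-0.36), and both without the variance trend. The transporter genes of meningeal fibroblasts were low, with Slc13a4 not exceeding 5.18 and Slc22a6 at 0 in all 6 cultures. Without NT replicate 2, 4 genes of the list were downregulated instead of 7.

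**Figure D5:**
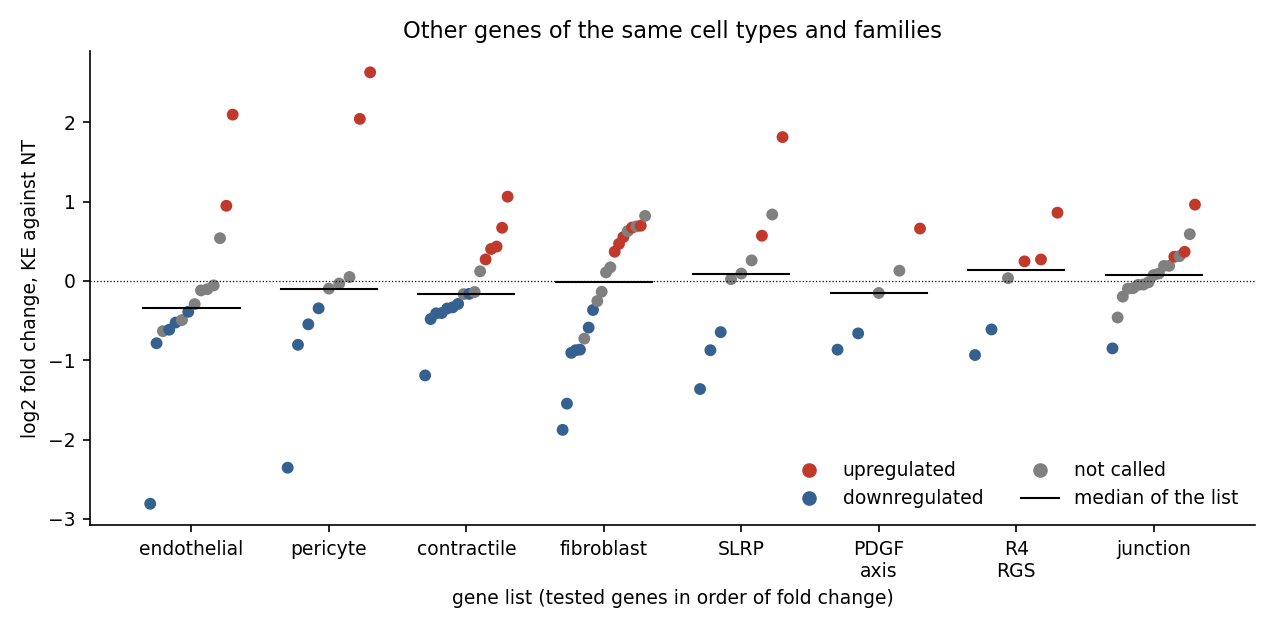
Log2 fold change of KE against NT for the tested genes of 8 lists of other endothelial, pericyte, contractile, fibroblast, proteoglycan (SLRP), PDGF, RGS and junction genes, each point a gene in order of its value and the black line the list's median. Every list held upregulated (red) and downregulated (blue) genes, and the medians lay between -0.34 and 0.14.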

How the data were processed

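The authors deposited a normalized signal for each gene and culture, that is, Salmon's gene count after division by a size factor from DESeq2. The supplemental methods give trimming (TrimGalore) and alignment by STAR to GRCm39 and Gencode models. That paragraph lists hippocampus and spheroid libraries and names astrocytes only for a later enrichment test, and the submitters' processing notes list GRCh38, although the identifiers are mouse. Size factors remove depth differences and assume that the typical gene stays constant. Depth was approximated by dividing a culture's total by its commonest low value, taken as 1 read. Only 74.7 to 77.6% of low values fell within 0.1 of whole reads, against 95% needed, so no count test was run, and precision rests on the differences among replicate cultures.

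Genes with a mean normalized count of 10 or more entered limma 3.58.1 (R 4.3.3) as log2(normalized count + 1), with a variance trend and no factor but group. Tests are two-sided, with Benjamini-Hochberg adjustment over 15280 genes. The fit was tested on simulated data. Coordinates and transcript lengths came from Gencode vM39 (GRCm39), and promoters from RefSeq (GRCm38.p6). The markers and gene lists were chosen with earlier results of these data known. Besides the markers, Braf, the highest 3 tested genes of each vascular, mesenchymal or family list and genes changed by at least 1.5 on the log2 scale were named by rule. Other genes were named after their values were seen, among them the regulators and near-absent genes, Stambpl1 and Pcsk7. Alternatives were other pseudocounts, filters, scalings, no trend, a replicate block and leaving out each culture.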

Additional observations from a re-analysis of the deposited data

How the results depend on the processing

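In 833 of 901 comparisons of a log2FC or a count with an alternative, neither direction nor call changed and no count moved by over 1.5 times. Genes named after their values were seen are largely outside these 901, Rgs4 and Col1a1 among them. Acta2, Tagln, Rgs5 and Dcn kept their calls under each alternative run, with log2FC of -1.58 to -1.17, -1.36 to -1.02, 0.67 to 0.98 and -0.82 to -0.52. Leaving out each culture in turn gave log2FC of -0.98 to -0.77 for Pecam1, 0.31 to 0.50 for Lum and -0.32 to -0.14 for Pdgfrb. It gave 1 to 2 upregulated markers, 1 to 2 upregulated endothelial genes, 4 to 8 downregulated contractile genes, 4 to 7 downregulated fibroblast genes and 1 to 2 downregulated junction genes, and 6776 to 7199 DEGs over all genes. Notch3, which was not called, ranged from -0.040 to 0.11 and turned negative without KE replicate 2 (-0.025) and without NT replicate 1 (-0.040), and Rgs4 and Col1a1, also not called, changed sign without NT replicate 3 (-0.041) and without NT replicate 2 (0.055). Without the variance trend, Lum (0.39, adjusted p = 0.056, 0.0084 to 0.086 over its alternatives) was not called, 1 marker was upregulated and 5 contractile genes were downregulated. With no filter on low genes, Pecam1 (-0.86, adjusted p = 0.057, 0.0026 to 0.072 over its alternatives) was not called, while Des (adjusted p = 0.0030) was called upregulated and Cdh5 (adjusted p = 0.028) downregulated, which made 3 upregulated markers. These fits rest on a group at or near 0 and give no fold. With a mean of at least 50, 0 endothelial genes and 1 proteoglycan gene were upregulated, which the smaller number of genes tested produces in part, and Pecam1 had no test. Deviations from the group means were weakly related between KE and NT cultures of the same number, with r of 0.059 to 0.066 across genes against -0.050 to -0.010 for other pairs. Because the deviations of a group cancel out for each gene, positive r for some pairs forces negative r for others. The contrast with the other pairs is therefore partly built in. With the replicate number as a block, 4 proteoglycan genes were upregulated, Prelp (0.26, adjusted p = 0.039) among them, and no call of a marker changed. The cause of these changes was not tested. Depth limits Cldn5, Cdh5 and Des, which amount to 11 reads at most.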
